A study of Mus musculus with 24 samples.

Results

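The 10 genes described here supply cells with amino acids and with the one-carbon units made from serine. They were chosen by name from the RNA table, 10 of the 24453 genes with a symbol, as 5 plasma membrane transporter subunits (Slc7a11, Slc3a2, Slc7a5, Slc7a1 and Slc1a5), asparagine synthetase (Asns), 2 enzymes of serine synthesis (Phgdh and Psat1) and 2 mitochondrial enzymes that take one-carbon units from serine (Shmt2 and Mthfd2). The choice was made with earlier results of these data known. Where a gene had several transcript rows, the row with the highest mean RPKM (tags divided by gene body length and library size) was used. All 10 genes passed the filter on low values, more than 70 tags in at least 1 library, among 10763 genes that did.

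Vascular smooth muscle cells (VSMCs) were isolated from the thoracic aortas of C57BL/6J mice that were 8 to 10 weeks old, and were grown in DMEM with 10% FBS. Cholesterol-loaded cells received a complex of cholesterol with methyl-β-cyclodextrin (Chol:MβCD) at 20 µg/mL in 0.2% BSA for 24 h (n = 3) or 48 h (n = 3). Control cells received 0.2% BSA for 0 h (n = 3), 24 h (n = 3) or 48 h (n = 2, after the study discarded the first replicate). Control cells had no cyclodextrin, so cholesterol and its carrier cannot be told apart here. H3K27ac ChIP-seq, which marks active promoters and enhancers, had 1 library per condition.

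Slc7a11 (xCT) and Slc3a2 (CD98hc or 4F2hc) form system xc-, which takes up cystine in exchange for glutamate. Slc3a2 also pairs with Slc7a5 (LAT1), which carries large neutral amino acids such as leucine. Slc7a1 (CAT1) carries arginine and other cationic amino acids, and Slc1a5 (ASCT2) carries glutamine and other small neutral amino acids. Phgdh, Psat1 and Psph convert a glycolytic intermediate to serine, Shmt2 splits serine to glycine and a one-carbon unit in mitochondria, and Mthfd2 oxidizes the folate that carries this unit. Asns makes asparagine from aspartate and glutamine. In mammalian cells many of these genes are known targets of ATF4, the transcription factor of the amino acid and integrated stress responses, and Slc7a11 is also a known target of NRF2, the transcription factor of the oxidative stress response.

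The proximal promoters of Slc7a11 and Asns are shown because both are textbook amino acid response genes and because their windows were the ones among the members that held the C/EBP-ATF response element searched for, TGATGNAA, on either strand. The sequences are RefSeq, build GRCm38.p6 (the assembly of mm10), 250 bases that end just before the annotated start. They are printed 5′ to 3′ on the minus strand, which has the sense of the RNA, with matches in capitals. The Slc7a11 window is chr3:50443614-50443863 and the Asns window is chr6:7693210-7693459.
Slc7a11: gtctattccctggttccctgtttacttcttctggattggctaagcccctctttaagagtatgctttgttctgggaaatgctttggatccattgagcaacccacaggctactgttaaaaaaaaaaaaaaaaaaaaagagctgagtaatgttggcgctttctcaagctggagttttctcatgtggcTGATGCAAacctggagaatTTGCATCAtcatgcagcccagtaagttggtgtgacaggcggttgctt
Asns: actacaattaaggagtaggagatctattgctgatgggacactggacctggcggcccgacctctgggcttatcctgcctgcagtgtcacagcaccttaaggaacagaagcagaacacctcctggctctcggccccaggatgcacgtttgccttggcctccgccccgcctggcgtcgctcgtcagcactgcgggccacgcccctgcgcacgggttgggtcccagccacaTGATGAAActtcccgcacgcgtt
The Slc7a11 window held 2 matches, which begin 66 and 47 bases before the start, lie 11 bases apart and face each other, TGATGCAA and then TTGCATCA. The Asns window held TGATGAAA, which begins 23 bases before the start. RefSeq windows of 300 bases (250 before to 50 after a start) were at hand for 8 of the 10 genes, in 10 windows, Slc7a5 and Slc1a5 being the others. Of all 32817 windows, 3.97% held TGATGNAA. The antioxidant response element TGACNNNGC was found in windows of Slc7a1, Asns and Phgdh and in 12.38% of all windows. The E-box CACGTG (7.15% of all windows) and the cyclic AMP response element TGACGTCA (1.79%) were found in none of the 10 windows. These matches are descriptions of the letters only, and no binding was measured.

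The 14 RNA libraries held 2726790 to 7590860 tags, recovered from the steps of the RPKM values. These are fewer than the average number of mapped reads that the study reports per sample, and depth here means these tags. The control 0 h libraries ranged over 2726790 to 6994330 tags. At 24 h all 6 libraries had 6759220 to 7590860 tags, and at 48 h all 5 had 3633880 to 4968420, so depth differed between times more than between treatments. The table was made with 1 tag per position, and its densest row held 1.07 to 1.67 tags per base of its length. Among the members the highest density was 0.799 tags per exon base (Asns) and the lowest maximum was 0.073 (Slc7a11), against a median of 0.162 over the genes tested with an exon length. Slc3a2, Slc7a5, Asns, Psat1, Shmt2 and Mthfd2 reached 0.5 or more, as did 9.4% of those genes. A limit of 1 tag per position can hold down the levels and ratios of such dense genes, and its part in these values was not tested. Each of the 14 libraries was nearest to another library of its own group, though the study set control 0 h replicate 1 aside in one of its own comparisons for not grouping with its replicates. Smooth muscle markers were abundant in every group (the sum of 8 contractile genes was 108.5 to 233.8 normalized RPKM). Endothelial markers (7 genes) summed to 0.303 to 1.39, fibroblast markers (7) to 1.76 to 3.52 and mesothelial markers (4) to 11.6 to 19.9. Of 9 macrophage markers, which summed to 7.06 to 19.9, Adgre1, Ptprc, Itgam and Aif1 were at or near 0 (Aif1 at 0 in every library), while Lgals3, Cd68, Cd14, Lyz2 and Csf1r were measured at means of 6.52, 2.64, 1.64, 1.11 and 0.411. The bulk values cannot tell a change in the number of cells of a type from a change in RNA per cell.

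To ask whether cholesterol loading changed these genes, cholesterol-loaded cells were compared with control cells of the same time. At 24 h, 6 of the 10 genes rose (Slc7a11, Slc3a2, Slc7a5, Slc7a1, Phgdh and Shmt2), against 3.03% of all genes tested. At 48 h, 9 of 10 rose, every member but Phgdh, against 13.2% of all genes. No member had a negative log2 fold change at either time. Every cholesterol library lay above every control library for 10 of 10 members at 24 h, against 18.9% of all genes, and for 9 of 10 at 48 h, against 22.5%. Because the members were chosen with earlier results known, these shares are given for comparison and are no test of the set. The median log2 fold change of the members was 0.31 at 24 h and 0.53 at 48 h, while the median of all genes tested was -0.0031 and -5e-04. The test was limma on log2(normalized RPKM + 1) over all 14 libraries with Benjamini-Hochberg adjustment over 10763 genes, and a call is an adjusted p under 0.05. Adding 1 shrinks the fold change of genes of low level, so ratios of group means are given as well. The calls at 24 h depended on which libraries were used. Without any 1 of the 6 libraries at 24 h, 1 or 2 members were called, whereas without control 0 h replicate 1, the library of lowest depth, or with only the 6 libraries of 24 h, 9 were called. Calls over all 10763 genes moved as well. Without a 24 h library 153 to 184 genes were called higher, against 326 with all libraries. Without control 0 h replicate 1 it was 404, and with only the 6 libraries of 24 h it was 1192. At 48 h, 7 to 10 members were called whichever library was left out, the lowest count being without control 48 h replicate 3. Over all genes 888 to 1616 were then called higher, the lowest count again being without control 48 h replicate 3.

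**Figure D1:**
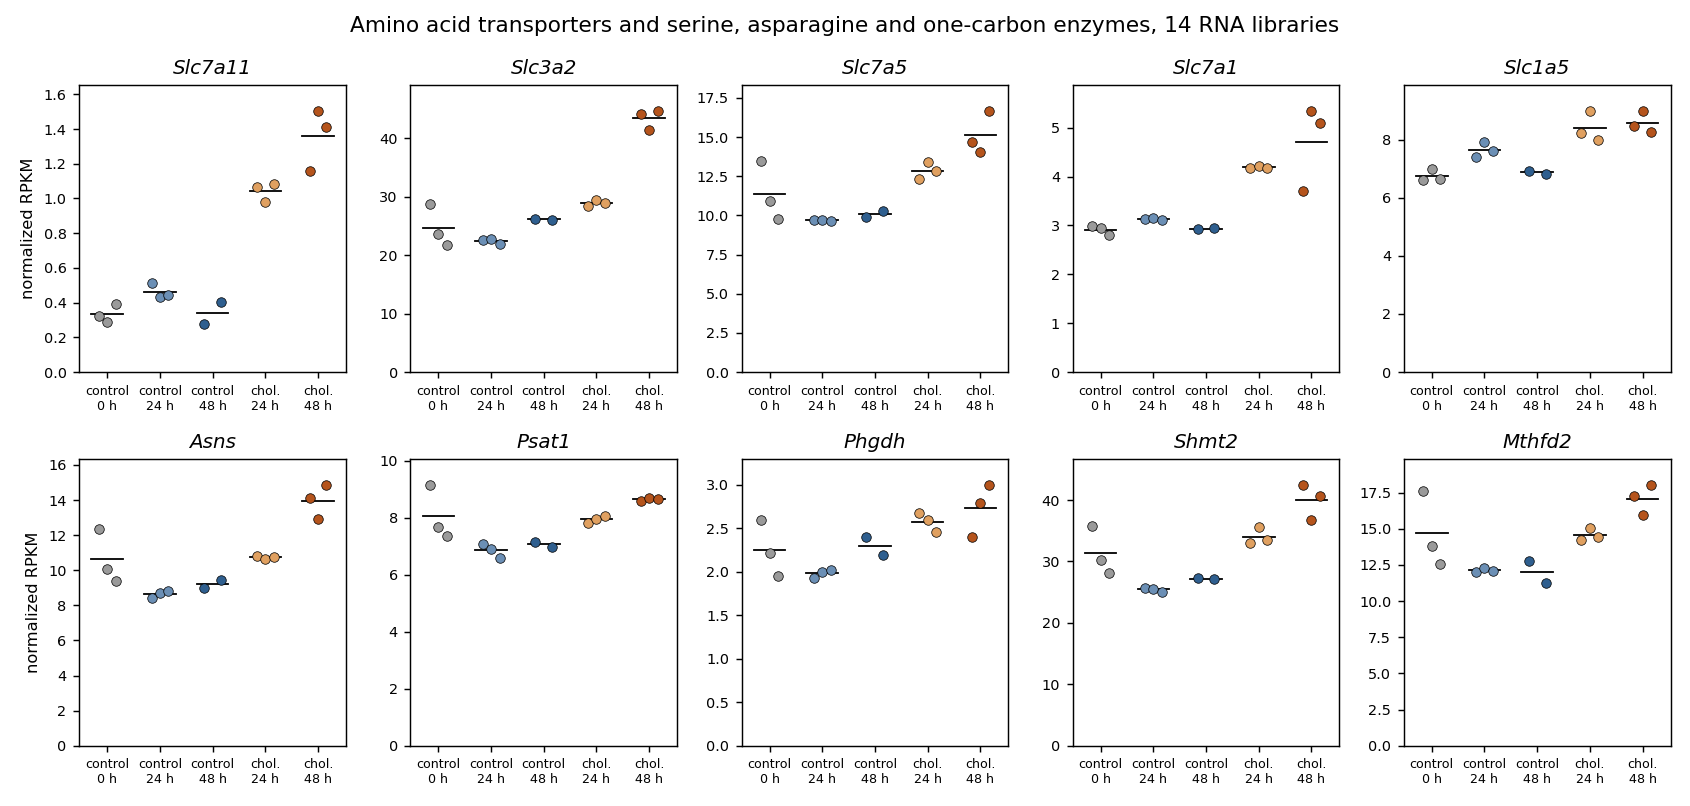
Normalized RPKM of the 10 genes in each of the 14 RNA libraries (y axis from 0, 1 panel per gene). Points are libraries and lines are group means. In each panel the 3 cholesterol 24 h libraries lie above the 3 control 24 h libraries, and at 48 h the treatments overlap only for Phgdh.

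Among the transporters, Slc7a11 changed most. It was low in control cells, at 0.514, 0.434 and 0.443 normalized RPKM in the 3 libraries of 24 h and 0.274 and 0.406 in those of 48 h. Cholesterol-loaded cells had 1.06, 0.983 and 1.08 after 24 h and 1.16, 1.504 and 1.41 after 48 h. All 6 cholesterol libraries lay above all 8 control libraries. The ratio of means was 2.25 at 24 h (log2 fold change 0.48 ± 0.0531, SE, limma adjusted p = 6.95e-05) and 3.998 at 48 h (0.81 ± 0.0594, adjusted p = 5.07e-07). Its row spans a gene body of 78677 bp (NM_011990, mm10 chr3:50364936-50443613, 12 exons), and the values rest on 63 to 672 tags per library. Slc7a11 was the only member called when the effects at 48 h and 24 h were themselves compared (difference 0.33 ± 0.0796, SE, limma adjusted p = 0.0227), where 6.36% of all genes were called in either direction. Leaving out control 24 h replicate 1, cholesterol 24 h replicate 2 or control 48 h replicate 2 ended that call, and its adjusted p over all single left-out libraries ranged from 0.00271 to 0.138.

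Slc3a2, the heavy chain shared by both heteromeric transporters, was the member with the next largest change at 48 h (chr19:8706882-8713897, NM_008577, 9 exons). Control libraries of 24 h had 22.6, 22.8 and 21.9 normalized RPKM, and those of 48 h had 26.2 and 26.1. Cholesterol-loaded cells reached 28.4, 29.4 and 28.9 after 24 h and 44.2, 41.5 and 44.7 after 48 h. The treatments did not overlap at either time. The ratio was 1.29 at 24 h (log2 fold change 0.35 ± 0.0868, SE, limma adjusted p = 0.0275) and 1.66 at 48 h (0.71 ± 0.097, adjusted p = 0.000119). The effects at the 2 times did not differ by the test (difference 0.36, 95% interval 0.08 to 0.64, adjusted p = 0.139).

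Slc7a5, the light chain of LAT1 (chr8:121881146-121907686, NM_011404, 10 exons), had 9.71, 9.74 and 9.65 normalized RPKM in control cells at 24 h, against 12.3, 13.4 and 12.8 in cholesterol-loaded cells. At 48 h the values were 9.88 and 10.3 in control cells and 14.7, 14.03 and 16.7 in cholesterol-loaded cells. The ratio was 1.32 at 24 h (limma adjusted p = 0.0268) and 1.502 at 48 h (adjusted p = 0.00137). Slc7a5 tracked the other members most closely. Across the 14 libraries its Pearson correlation with the mean Z-score of the other 9 was 0.975.

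Slc7a1, the arginine transporter (chr5:148327410-148392815, NM_001301424), was even among control libraries, at 3.11 to 3.15 normalized RPKM in the libraries of 24 h and 2.93 and 2.94 in those of 48 h. Cholesterol-loaded cells had 4.18, 4.21 and 4.18 at 24 h. At 48 h they had 3.71, 5.34 and 5.09, replicate 1 being below every cholesterol library of 24 h. The ratio was 1.34 at 24 h (limma adjusted p = 0.0314) and 1.61 at 48 h (adjusted p = 0.000867).

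Slc1a5, the glutamine transporter (chr7:16781346-16798274, NM_009201), had the smallest change of the transporters. Control cells had 7.41, 7.91 and 7.59 normalized RPKM at 24 h and cholesterol-loaded cells had 8.21, 8.98 and 7.99, a difference that did not pass the test (log2 fold change 0.12, 95% interval 0.0063 to 0.23, limma adjusted p = 0.232). At 48 h control cells had 6.93 and 6.82 and cholesterol-loaded cells 8.45, 8.98 and 8.26, a ratio of 1.245 (adjusted p = 0.00313). Its correlation with the mean Z-score of the other 9 members, 0.633, was the lowest of the 10.

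Asns, which makes asparagine (chr6:7675171-7693182, NM_012055), had 8.44, 8.72 and 8.79 normalized RPKM in control cells at 24 h, against 10.8, 10.6 and 10.8 in cholesterol-loaded cells. The groups did not overlap, but the difference narrowly missed the threshold (ratio 1.24, log2 fold change 0.28 ± 0.0793, SE, limma adjusted p = 0.0508). At 48 h control cells had 9.01 and 9.47 and cholesterol-loaded cells 14.1, 12.9 and 14.9, a ratio of 1.51 (0.55 ± 0.0886, adjusted p = 0.000473).

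Of the enzymes of serine synthesis among the members, Phgdh was called at 24 h and Psat1 at 48 h. Phgdh, the first enzyme of the pathway (chr3:98313171-98339969, NM_016966), had 1.93, 2.00 and 2.02 normalized RPKM in control cells at 24 h, against 2.67, 2.60 and 2.46 in cholesterol-loaded cells, a ratio of 1.299 (log2 fold change 0.26, limma adjusted p = 0.0479). At 48 h control cells had 2.40 and 2.19 and cholesterol-loaded cells 2.396, 2.78 and 3.00. Cholesterol 48 h replicate 1 lay just under control 48 h replicate 2, and the difference did not pass the test (0.17, 95% interval 0.0011 to 0.35, adjusted p = 0.131), though it did without that cholesterol library (adjusted p = 0.0324). The 24 h call held in 4 of the 14 fits with a library left out and in none without a library of that time. Psat1, the transaminase of the pathway (chr19:15905123-15924622, NM_001205339), had 7.07, 6.92 and 6.59 in control cells at 24 h, against 7.81, 7.94 and 8.06 in cholesterol-loaded cells (ratio 1.16, adjusted p = 0.108). At 48 h it had 7.16 and 6.97 in control cells and 8.57, 8.70 and 8.66 in cholesterol-loaded cells, a ratio of 1.22 (adjusted p = 0.0151). That call was lost without either control 48 h library, with an adjusted p of up to 0.101.

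The mitochondrial enzymes rose at 48 h. Shmt2 (chr10:127517123-127522444, NM_001252316, whose row overlaps that of Ndufa4l2 by 33 bp) had 25.8, 25.5 and 25.1 normalized RPKM in control cells at 24 h, against 33.0, 35.7 and 33.4 in cholesterol-loaded cells. At 48 h control cells had 27.3 and 27.1 and cholesterol-loaded cells 42.5, 36.8 and 40.7. The ratio was 1.34 at 24 h (log2 fold change 0.40 ± 0.0887, SE, limma adjusted p = 0.0145) and 1.47 at 48 h (0.54 ± 0.0991, adjusted p = 0.00118). Mthfd2 (chr6:83305704-83317604, NM_008638) had 12.03, 12.3 and 12.1 in control cells at 24 h, against 14.3, 15.1 and 14.4 in cholesterol-loaded cells, without passing the test (ratio 1.20, adjusted p = 0.163). At 48 h it had 12.8 and 11.3 in control cells and 17.2, 15.9 and 18.0 in cholesterol-loaded cells, a ratio of 1.42 (adjusted p = 0.00437). That call was lost without control 48 h replicate 3 (adjusted p = 0.0667).

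**Figure D2:**
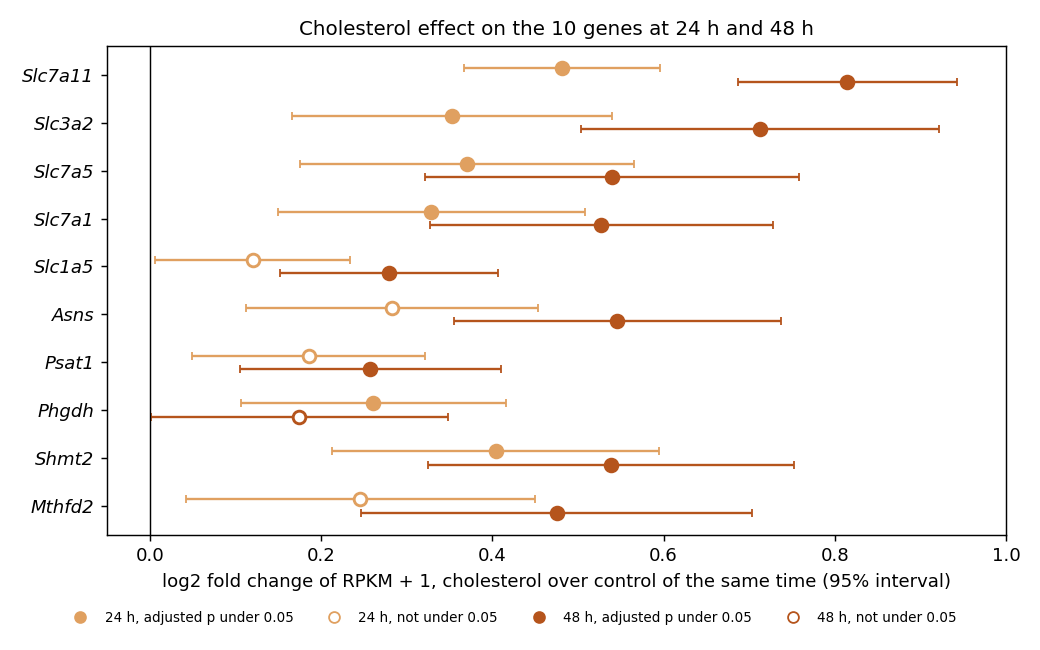
Log2 fold change of RPKM + 1 (x axis) of cholesterol-loaded over control cells for the 10 genes at 24 h and 48 h. Points are limma estimates, bars are 95% intervals, and filled points passed an adjusted p of 0.05. All 20 points lie to the right of 0, from 0.12 (Slc1a5, 24 h) to 0.81 (Slc7a11, 48 h).

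Levels of different genes were compared per kilobase of exon, on the reading that polyA tags fall in exons. In cholesterol-loaded cells at 48 h, Asns had the highest level, 128 ± 9.05 exon-scaled RPKM (SD, n = 3), followed by Slc3a2 at 118.5 ± 4.66 and Slc7a5 at 114 ± 10.4. The spreads of these 3 overlap. Mthfd2 (98.1 ± 6.08) and Shmt2 (92.7 ± 6.75) came next and also overlap each other. Psat1 was at 73.4 ± 0.58, Slc1a5 at 52.6 ± 2.29, Slc7a1 at 43.7 ± 8.14 and Phgdh at 39.0 ± 4.37. Slc7a11, the member of largest fold change, had the lowest level, 11.6 ± 1.53. These levels are a description with no test, and the limit of 1 tag per position applies to them.

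To see whether time in control medium moved these genes, the control groups were compared. By limma none of the 10 genes was called in control cells at 24 h against 0 h, where 9.85% of all genes were called in either direction, nor at 48 h against 0 h, where 16.8% were. At an unadjusted p under 0.05, 7 members differed at 24 h (28.6% of all genes) and 2 at 48 h (30.5% of all genes). With weights from the recovered tags (voom) 3 members were called lower at 24 h, against 8.32% of all genes, and 0 at 48 h. Without control 0 h replicate 3, 5 members were called at 24 h, against 22.8% of all genes. Slc7a11, Slc7a1 and Slc1a5 varied more in cholesterol-loaded cells at 48 h than in control cells at 0 h. For the other members the control 0 h libraries had the largest SD of all groups. For Asns they had 12.4, 10.1 and 9.41 normalized RPKM, and for Mthfd2 17.6, 13.8 and 12.6, in the order of replicates 1, 2 and 3, whose depths were 2726790, 4782240 and 6994330 tags. For 8 of the 10 genes replicate 1, the library of lowest depth, was the highest of the group. The part of depth in these values was not tested, and the comparisons of treatment use this group for the shared spread but not its means.

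The mean Z-score over the 10 genes separated the treatments at both times. It was -0.929 to -0.808 in control cells at 24 h, -0.813 to -0.712 at 48 h, 0.38 to 0.588 in cholesterol-loaded cells at 24 h and 1.08 to 1.53 at 48 h. Control 0 h libraries ranged from -0.891 to 0.305. Among 7958 further genes tested whose mean RPKM reached 1, the profiles most like this mean over the 14 libraries were those of Aldh18a1 (Pearson correlation 0.981), which makes the precursor of proline, Txnrd1 (0.975), a thioredoxin reductase, Arhgef2 (0.974), a guanine nucleotide exchange factor, Ppp2r5b (0.966), a regulatory subunit of protein phosphatase 2A, and Wars (0.966), the tryptophanyl tRNA synthetase. The points share library, depth and treatment, so the correlations are descriptions.

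**Figure D3:**
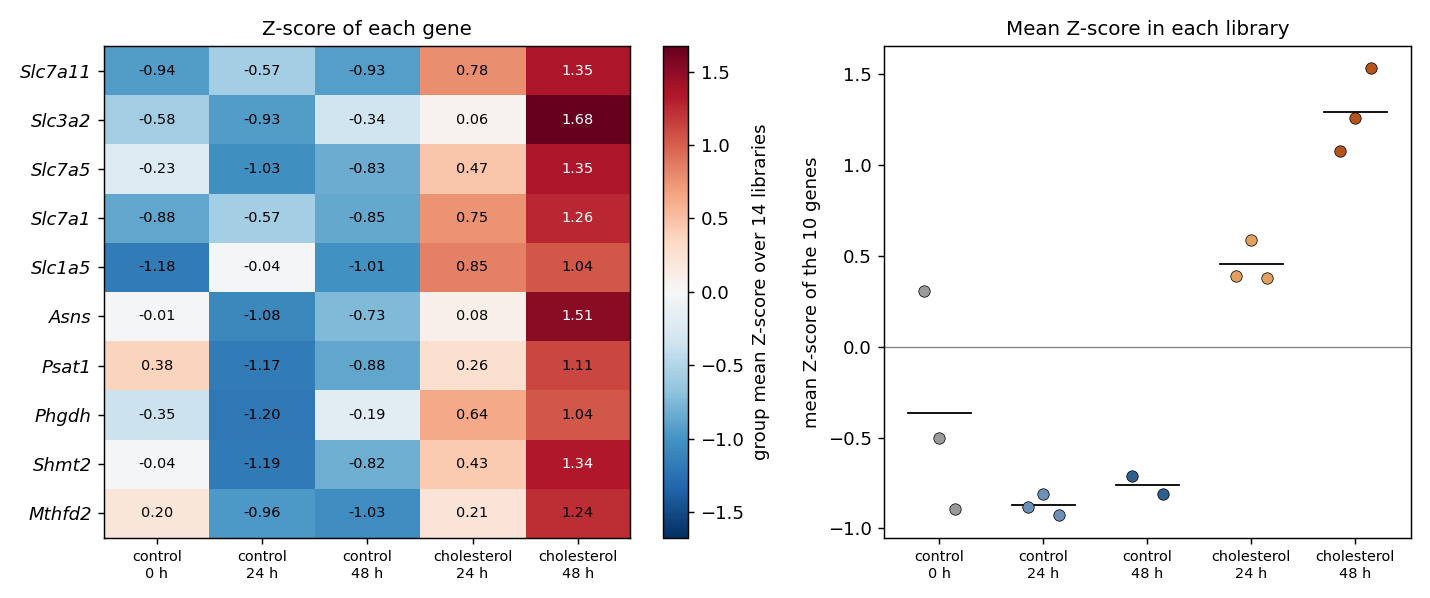
Left, group mean Z-score of each gene over the 14 libraries (colour and number). Right, mean Z-score of the 10 genes in each library (points) with group means (lines). The cholesterol 48 h libraries lie highest, at 1.08 to 1.53, and the control 24 h libraries lowest on average, at -0.929 to -0.808.

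Other amino acid transporters were described with a list of 30, of which 18 were tested. At 24 h, 4 rose and 2 fell (3.03% and 3.34% of all genes), and at 48 h, 9 rose and 3 fell (13.2% and 13.7% of all genes). The median log2 fold change of the list was 0.05 at 24 h and 0.07 at 48 h. Slc7a3 (CAT3), a further cationic amino acid transporter, rose at 48 h from 1.44 to 4.30 normalized RPKM (log2 fold change 1.12, limma adjusted p = 1.31e-06), and at 24 h it had 2.51 and 3.21 (0.26, adjusted p = 0.075). Slc6a9 (GLYT1), a glycine transporter, rose at both times (here and in what follows, 24 h and then 48 h, 0.61, adjusted p = 1.37e-05, and 0.98, adjusted p = 1.77e-07). Slc38a7, a lysosomal transporter for glutamine and asparagine, also rose at both (0.46 and 0.88, adjusted p = 0.000275 and 6.48e-07). The abundant Slc38a2 (SNAT2), an amino acid response gene in other mammalian cells, was not called (-0.12 at 24 h, adjusted p = 0.608, and 0.06 at 48 h, adjusted p = 0.757), nor was Slc7a6 (-0.02 and -0.06). Slc6a6, the taurine transporter, fell (-0.39 at both times, adjusted p = 0.0272 and 0.0141), as did Slc38a10 (-0.29 and -0.24, adjusted p = 0.0272 and 0.0405). The last 2 were named after their values were seen. The number of transporters called lower was 0 at 24 h with no filter on low values, and 1 at 48 h with a mean RPKM of at least 1 or with only the groups compared. It was 0 or 1 at 24 h without any 1 of the 24 h libraries, and 1 at 48 h without either control 48 h library.

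The remaining serine and folate enzymes, 26 tested of a list of 28, moved in both directions. At 24 h, 3 rose and 1 fell (3.03% and 3.34% of all genes). At 48 h, 6 rose and 6 fell (13.2% and 13.7% of all genes). The medians were 0.05 and -0.03. Psph, the last enzyme of serine synthesis, rose from 2.10 to 3.19 normalized RPKM at 24 h and from 1.96 to 3.78 at 48 h (log2 fold change 0.43 and 0.69, limma adjusted p = 8.29e-05 and 1.11e-06). Aldh1l2, the mitochondrial enzyme that releases carbon dioxide and NADPH from formyl-folate, rose from 3.48 to 4.88 and from 2.42 to 5.17 (0.39 and 0.85, adjusted p = 0.00212 and 2e-06). Its cytosolic counterpart Aldh1l1 fell from 1.84 to 0.635 at 24 h and from 2.03 to 0.821 at 48 h (-0.80 and -0.74, adjusted p = 3.44e-07 and 7.66e-07).

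Sorted by compartment, a sorting made after the values were seen, the mitochondrial Mthfd1l rose too (0.18 and 0.13, limma adjusted p = 3.07e-05 and 0.000527), and Mthfd2l did not pass the test (-0.06 and -0.02, adjusted p = 0.0589 and 0.533). The cytosolic Shmt1 and Mthfd1 were not called at 24 h (0.07 and -0.03) and fell at 48 h (-0.16, adjusted p = 0.0223, and -0.17, adjusted p = 0.0153). Of enzymes that spend one-carbon units on nucleotides, Tyms (-0.51, adjusted p = 0.00043) and Gart (-0.24, adjusted p = 0.00188) fell at 48 h and were not called at 24 h (0.06 and 0.05), while Atic was not called at either time (0.13 and -0.02). Sfxn3 and Mat2a, the most abundant of the list that were not called, had -0.12 and -0.02 at 24 h and -0.18 and -0.03 at 48 h.

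**Figure D4:**
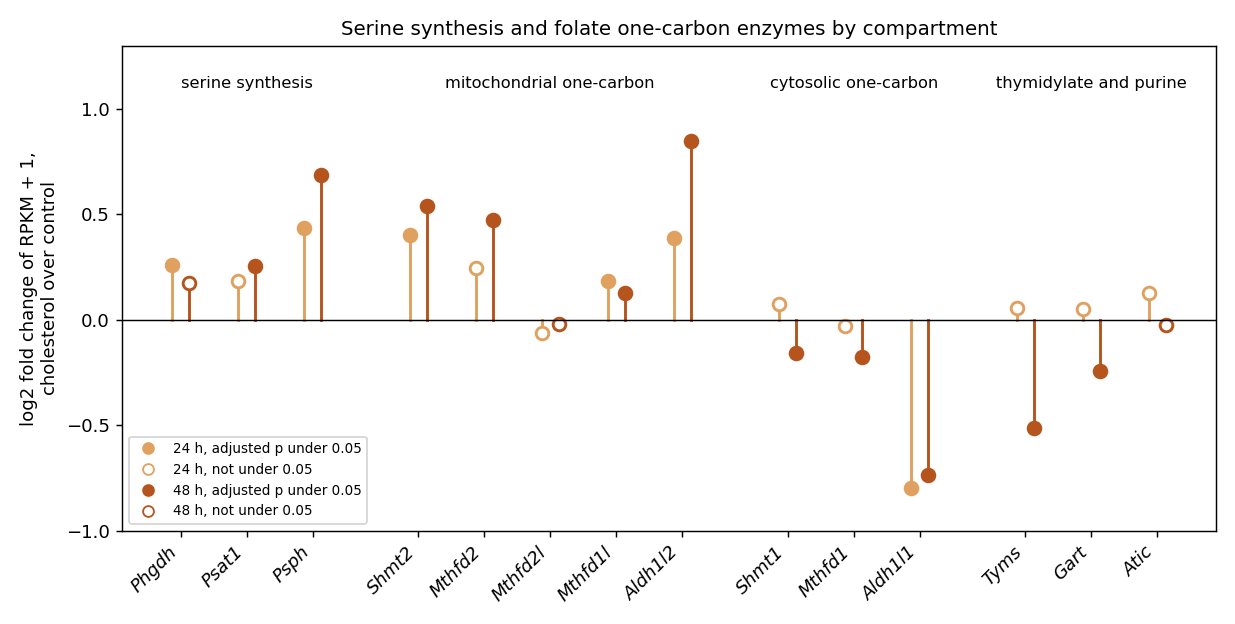
Log2 fold change of RPKM + 1 (y axis) of cholesterol-loaded over control cells for serine synthesis and folate enzymes grouped by compartment, where the genes drawn are not the whole list and do not stand for a compartment. Filled points passed a limma adjusted p of 0.05. Shmt2, Mthfd2 and Aldh1l2 are at 0.54, 0.48 and 0.85 at 48 h, while Aldh1l1 and Tyms are at -0.74 and -0.51.

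Of other enzymes of amino acid synthesis and transamination, 17 were tested of 19. At 24 h, 6 rose (3.03% of all genes) and at 48 h, 7 rose (13.2% of all genes). None was called lower by limma at either time (3.34% and 13.7% of all genes, medians of the list 0.05 and 0.06). Got1, the cytosolic aspartate aminotransferase, rose from 2.63 to 3.87 normalized RPKM at 24 h and from 2.58 to 5.77 at 48 h (log2 fold change 0.42 and 0.92, adjusted p = 0.000113 and 1e-07). Bcat1, the cytosolic branched-chain aminotransferase, rose by 0.54 and 0.85 (adjusted p = 1.25e-05 and 1.92e-07). Cth, which makes cysteine from cystathionine, rose from 0.642 to 1.15 and from 0.572 to 1.61 (0.39 and 0.73, adjusted p = 0.000115 and 3.47e-07). Oat (-0.07 and 0.06), an abundant enzyme of ornithine metabolism, was not called.

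Regulators of the ATF4 and amino acid response were described with a list of 18 genes, all tested. The list shares genes with the unfolded protein response, which the study named from these libraries, so it is not independent evidence of its direction. At 24 h, 6 rose (3.03% of all genes) and at 48 h, 9 rose (13.2% of all genes). None was called lower by limma (3.34% and 13.7% of all genes, medians of the list 0.15 and 0.38). The largest changes were those of Atf3 (1.13 and 1.66, limma adjusted p = 1.28e-07 and 8.35e-09), Trib3 (0.80 and 1.65, adjusted p = 1.04e-05 and 2.59e-08), Chac1 (1.01 and 1.43, adjusted p = 8.99e-07 and 5.28e-08), which degrades glutathione, Ddit3 (CHOP, 0.71 and 1.40, adjusted p = 8.71e-06 and 2.71e-08) and Ppp1r15a (GADD34, 0.68 and 1.37, adjusted p = 0.000115 and 1.77e-07). Cebpb, a transcription factor that binds with ATF4, rose at 48 h (0.89, adjusted p = 0.00351) and had 0.27 at 24 h (adjusted p = 0.451). Atf4 itself, whose protein is known to be set mainly by translation, was not called at the RNA level (0.12, adjusted p = 0.758, and 0.44, adjusted p = 0.0597), nor was Atf5 (0.04 and 0.03). The study, which used a different test (a likelihood ratio over both times), reports Atf4 RNA as raised by cholesterol.

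Of 12 NRF2 genes, all tested, 4 rose at 24 h and 5 at 48 h (3.03% and 13.2% of all genes). None was called lower by limma (3.34% and 13.7% of all genes, medians of the list 0.06 and 0.08). Hmox1, which degrades heme, rose from 20.2 to 28.3 normalized RPKM at 24 h and from 25.4 to 49.8 at 48 h (log2 fold change 0.47 and 0.94, adjusted p = 0.0154 and 4.98e-05). Srxn1, which repairs peroxiredoxins, rose by 0.39 and 0.93 (adjusted p = 0.00151 and 5.8e-07). Gclm, a subunit of the enzyme that starts glutathione synthesis, had 0.18 at 24 h (adjusted p = 0.0646) and rose at 48 h (0.53, adjusted p = 2.41e-05). Nqo1, a widely used NRF2 target, had -0.03 and 0.00 (adjusted p = 0.889 and 0.993), and Keap1 and Slc48a1 were not called. Gclm and Nqo1 were named after their values were seen.

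Some markers of cell state also differed between the treatments. The summed level of 8 contractile genes was 131.1 to 138.7 normalized RPKM in control cells and 108.5 to 114.5 in cholesterol-loaded cells at 24 h, and 167.4 to 168 and 127.3 to 147.9 at 48 h. Of the 7 of them tested, 3 fell at 24 h and 4 at 48 h (3.34% and 13.7% of all genes). Acta2 and Tagln, which make up most of the sum, were not called (limma adjusted p = 0.449 and 0.618 for Acta2, 0.656 and 0.429 for Tagln). The summed level of 9 macrophage markers was 7.06 to 9.60 and 11.6 to 12.4 at 24 h, and 10.5 to 10.7 and 18.7 to 19.9 at 48 h, with Adgre1, Ptprc, Itgam and Aif1 at or near 0 as above. Of the 2 of them tested, Lgals3 rose from 4.19 to 6.98 and from 4.04 to 10.4 (limma adjusted p = 0.000179 and 5.07e-07), and Csf1r rose at 48 h (0.18, adjusted p = 0.0132). Cd68, which was not tested, had 1.45 and 2.37 at 24 h and 2.29 and 5.03 at 48 h. Cd14 and Lyz2, not tested either, did not rise. Cd14 had 1.25 and 1.21 at 24 h and 2.41 and 2.30 at 48 h. Lyz2 had 1.21 and 1.025 at 24 h and 1.498 and 1.08 at 48 h. Of the mesothelial markers, 2 of 4 were tested, and Upk3b fell at 48 h from 14.1 to 10.7 (-0.36, adjusted p = 0.00174). Krt19, the other one tested, was not called (0.34 and -0.20, limma adjusted p = 0.377 and 0.53). Msln, not tested, had 0.464 and 0.552 at 24 h and 0.162 and 0.289 at 48 h. Neither of the 2 fibroblast markers tested was called. Of 2 endothelial markers tested, Tek, at a mean of 0.181, rose at 24 h and fell at 48 h (0.13 and -0.14, limma adjusted p = 0.00124 and 0.000343). These marker genes were named after their values were seen. The part of these shifts in the members' changes was not tested.

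H3K27ac regions near the gene starts were described in the 5 lists, with 1 library per condition and therefore no error. A region lay within 1 kb of the start of the row used in 39 of the 50 combinations of gene and list, 8 of 10 genes in control 0 h, 8 in control 24 h, 6 in control 48 h, 9 in cholesterol 24 h and 8 in cholesterol 48 h. Over all genes tested the share was 84.1% to 91.7% by list. The control 0 h list stood apart, with 16.9% of its tags in regions against 37.4% to 43.8% in the others. Slc7a11 had a region in every list. At 24 h it held 36.2 tags per kb of region in control cells and 55.5 with cholesterol, and at 48 h it held 40.8 and 50.9, in tags that the authors scaled to a common library size (ratios of 1.53 and 1.25, regions of 1324 to 2088 bp). Its fold over input was lower in cholesterol-loaded cells, 5.61 against 7.69 and 4.79 against 8.06. Mthfd2 had 38.2 and 68.8 tags per kb at 24 h and, at 48 h, no region in control cells and 55.3 in cholesterol-loaded cells. Phgdh had 45.6 and 72.8 at 24 h and 56.2 and 50.5 at 48 h. Psat1 had ratios of cholesterol to control of 1.17 at 24 h and 1.58 at 48 h (46.9 and 73.9 tags per kb). Slc3a2 had 89.6 and 95.3 at 24 h and 82.4 and 69.5 at 48 h, in regions that covered 5294 to 13482 bp. Over 9563 genes with a region in both 24 h lists the median ratio of cholesterol to control was 1.08 (quartiles 0.96 and 1.22, 5th to 95th percentile 0.78 to 1.47), and over 9099 genes at 48 h it was 1.0 (0.88 and 1.15, 0.71 to 1.42). The ratios of Slc7a11, Phgdh (1.6) and Mthfd2 (1.8) at 24 h and of Psat1 at 48 h lay above these ranges. They depend on the length of the region called. Phgdh at 24 h held 114.2 tags in 2504 bp in control cells and 126.6 in 1738 bp with cholesterol. Tags rose more for Slc7a11 (75.6 and 106.6) and Mthfd2 (92.2 and 143.7) at 24 h and Psat1 (166.4 and 231.7) at 48 h. For Slc3a2 at 48 h tags rose from 556.9 to 937.6 while the density fell.

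The start of the Slc7a1 row had a region in 1 of the 5 lists. The other RefSeq start of Slc7a1, 7089 bp upstream, had one in all 5, with 60.8 tags per kb in control cells and 85.4 with cholesterol at 24 h, and 74.4 and 92.0 at 48 h. Slc7a5 had regions in control 0 h and cholesterol 24 h cells only, among these 5 lists. With 1 library per condition, no difference between conditions could be tested.

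**Figure D5:**
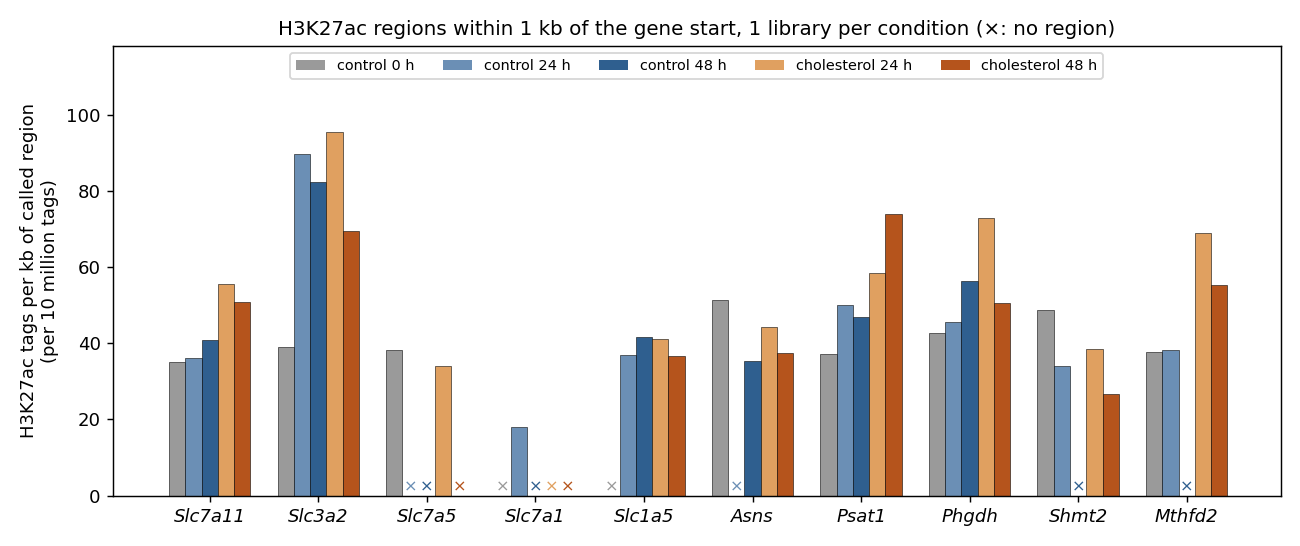
H3K27ac tags per kb of called region (y axis, tags scaled to a common library size) within 1 kb of the start of each gene's row in the 5 conditions, 1 library each. Crosses mark conditions without a region. Slc7a11 is at 36.2 in control and 55.5 in cholesterol 24 h cells, and Slc7a1 has a region in control 24 h alone.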

How the data were processed

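The authors aligned polyA RNA-seq reads with STAR (genome mm10) and used HOMER to count the tags of each RefSeq transcript (the sources used here give no versions). The deposited RPKM values divide these tags by the length of the whole gene body, introns too, and by library size, with 1 tag per position as read from the table's name. The table's headers call them FPKM. In all 14 libraries, 100% of the values tested came out as whole tags, to within 0.25 of a tag. For H3K27ac the authors mapped reads with Bowtie2 and called regions against input with HOMER findPeaks (histone style, 1 tag per position). The deposited signal is tags per region scaled to a common library size, and the deposited fold is the ratio over input, at least 4 with a Poisson p of 1e-04. Region lengths were taken from start and end.

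Libraries were grouped by their labels. The row of highest mean RPKM was kept per gene. Values were rescaled by the median of ratios (factors 0.904 to 1.06), and 10763 of 18896 genes above 0 were tested, those with more than 70 recovered tags in at least 1 library. limma 3.58.1 in R 4.3.3 was fitted to log2(normalized RPKM + 1) with 1 mean per group, a trend in the prior variance and 1 spread shared by all 14 libraries, and p-values were adjusted over all genes at 0.05. The study calls its replicates biological, but where the cultures came from is not stated, so p-values measure the spread between these libraries. The script was tested on simulated data. Of genes given a log2 fold change of 0.3, 17.6% were recovered at 24 h and 8.8% at 48 h. At 0.6 it was 86.4% and 74.2%, so changes as small as 0.3 were mostly missed. Intervals cover 95%. Exon-scaled RPKM replace the gene body by the summed exon length of the transcript in GRCm38.p6.

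The members and gene lists were chosen with earlier results of these data known. All members are named. Of each list, the genes named are those called at 24 h or 48 h that moved by 0.6 or more on the log2 scale and the 2 most abundant that were not called, besides the 5 genes most like the members' mean Z-score. Some genes of the lists are not reported here, though the counts include them. Every value column was matched to a sample. Alternatives were the pseudocount, filters, rescaling, weights, prior, block, rows and left-out libraries.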

Additional observations from a re-analysis of the deposited data

Results flagged for a closer look

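For 19 of the genes named, the change with cholesterol was not the same at 48 h as at 24 h, by the limma contrast of the 2 effects with an adjusted p under 0.05. Of all genes tested, 6.36% were called by this contrast in either direction. Apart from Slc7a11, the 19 had been named for a call of 0.6 or more in these same fits or after their values were seen. Their number therefore follows from the naming and cannot be set against that share. Slc7a11, with a difference of 0.33 on the log2 scale, was the only member among the 10. Among the transporters the difference was 0.86 for Slc7a3, 0.42 for Slc38a7 and 0.37 for Slc6a9. Among the enzymes it was 0.46 for Aldh1l2, 0.49 for Got1, 0.31 for Bcat1 and 0.34 for Cth. Among the regulators and targets it was 0.69 for Ppp1r15a, 0.69 for Ddit3, 0.85 for Trib3, 0.42 for Chac1, 0.53 for Atf3, 0.54 for Srxn1 and 0.35 for Gclm. For the marker Lgals3 it was 0.55. It was negative for Shmt1 (-0.23), Tyms (-0.57) and Gart (-0.29). The libraries of 48 h held 3633880 to 4968420 tags and those of 24 h 6759220 to 7590860, and the part of this difference in depth was not tested.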

How the results depend on the processing

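No result reversed its direction after a call. Of 700 values of members with 1 library left out, 642 kept their side of the threshold, 38 lost it and 20 gained it, and of 545 under the other settings 495, 9 and 41 did. The number of members called with a library left out ranged from 1 to 9 at 24 h, from 7 to 10 at 48 h, from 0 to 2 for the difference of the effects, from 0 to 5 for control 24 h against 0 h and from 0 to 1 for control 48 h against 0 h. Slc7a11 was called in 14 of 14 such fits at 24 h and at 48 h. At 24 h (6 in the report), 3 members were called with no filter on low values and 4 with a mean RPKM of at least 1, and 9 were called without rescaling, with the upper quartile, with array weights (whose estimation stopped before it converged) and with only the groups compared. For the difference of the effects (1 in the report), 0 were called with no filter or with a mean RPKM of at least 1 (which leaves Slc7a11 untested), 2 without rescaling or with only the libraries of the groups compared, and 5 with array weights. For control 24 h against 0 h (0 in the report), 1 was called without rescaling, with the upper quartile or without a trend, 3 with voom and 9 with array weights. For control 48 h against 0 h (0), 1 was called without rescaling, with the upper quartile and with array weights. A fold over input of at least 8 left a region at the start in 15 of the 39 combinations of gene and H3K27ac list. Over all genes, 686 were called at 24 h in the report, 454 with a mean RPKM of at least 1, 1097 with voom, 2964 with array weights, 2346 with only the groups compared and 348 to 1068 with a library left out. At 48 h, 2897 were called, 1455 with only the groups compared and 1881 without control 48 h replicate 3. For the difference, 685 were called, 420 with a mean RPKM of at least 1 and 1491 with array weights. For control 24 h, 1060 were called, 571 with a mean RPKM of at least 1 and 6570 with array weights, and for control 48 h 1808, 3999 with array weights and 950 with only the groups compared. The causes were not tested.

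Replicate numbers did not pair the libraries (26 pairs with the same number, correlations of deviations -0.324 to 0.218, 2 over 0.1). With the replicate number as a block, 5 members were called at 24 h, 9 at 48 h and 1 for the difference. Values of the gene lists under the alternatives were chosen after seeing the data, and 22 of 280 list counts with a library left out and 21 of 220 under other settings moved by over 1.5 times. Depth limits the members of few tags, such as Slc7a11 with 63 to 672 tags per library and Phgdh with 171 to 574.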
